A study of Arabidopsis thaliana with 24 samples.

Results

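Salicylic acid is a hormone of plant defence, and much of it is made from isochorismate by the enzyme ICS1, which the sid2 mutation removes. BTH (benzothiadiazole) is a synthetic analogue that is sprayed on leaves and switches on the same responses without the plant having to make the hormone. MIL4 is named in the title of the series as a regulator of this response, and the mil4 mutation is in that gene. The transcripts described here are those that were low in all 3 mutants sprayed with water while BTH did not lower them much in wild-type plants. They comprise 78 of 22746 probe sets, groups of oligonucleotides on the array that each report a transcript. Of the 78, 50 have no gene name here. Among the named ones are a few genes of calcium binding, immune receptors and sulfur and lipid metabolism, too few to characterize the whole.

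The samples were rosettes of 4-week-old Arabidopsis thaliana, grown at 22 °C with 14 h of light, and each sample was hybridized to an Affymetrix ATH1 array. There were 6 groups of 4 arrays. The mil4 plants were sprayed with BTH (300 µM) or with water, the mil4 sid2 plants and the sid2 plants with water only, and the Col-0 wild type (Col) with BTH or with water, in each case 2 days before collection. The titles call the arrays of a group biological replicates and give neither pooling nor separate cultures, so the p-values measure the spread between these arrays, which may be partly technical. The agents and alleles were not crossed in full, since no sid2 or mil4 sid2 plants received BTH. MIL4 and ICS1 have no probe set that carries their name here, so the arrays give no check of the genotypes.

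The members were chosen from group means of log2(intensity + 16), the scale of all levels and differences below, on which a difference of 1 is 2-fold. The Col water mean had to be at least 7, the mean of each water-sprayed mutant at least 1 below it, and Col BTH could lie no further than 0.5 below Col water. Of the 12637 probe sets that met the first condition, 268 were low enough in mil4, 458 in mil4 sid2 and 425 in sid2, and 179 in all 3. BTH split those 179 into the 78 members and 101 others that lay at least 0.5 lower in Col BTH than in Col water. The differences of the mutants from Col water and of Col BTH from Col water therefore fixed the choice and are given as descriptions, with no test. The mil4 BTH arrays entered no step. The platform annotation gave 27 members a single gene, all different, and 1 member, 249264_s_at, the 2 genes AT5G41750 and AT5G41740. The other 50 members are unnamed here. A further limit is that 5 probe sets may bind several transcripts, by their suffix. Rosettes are mixed tissue, so fewer cells of a type and less RNA per cell cannot be told apart.

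The line of the rule cut through a continuum. Of the probe sets with a single gene name, AT1G72030 (1.01 lower in mil4 water than in Col water), AT5G64550 (1.03 lower in sid2 water) and AT2G27310 lay just inside it. For AT2G27310 the difference of Col BTH from Col water was -0.48. Just outside lay AT2G41250, with a difference of -0.96 in mil4 water, and AT2G44940 and AT1G72920, where that of Col BTH from Col water was -0.52 and -0.53. AT1G72920 encodes a protein with a TIR domain, as found in intracellular immune receptors, and so does the member AT1G72940.

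The rule set the level of the members in 5 of the 6 groups, and mil4 BTH alone was free of it. Their mean level was 8.73, 8.74, 8.85 and 8.53 on the mil4 BTH arrays, 8.02, 8.13, 8.12 and 8.10 on the mil4 water arrays, 7.75, 7.86, 7.82 and 7.71 on the mil4 sid2 water arrays, and 7.75, 7.85, 7.62 and 7.75 on the sid2 water arrays. In the wild type it was 9.67, 9.17, 9.51 and 9.46 on the Col BTH arrays and 9.54, 9.61, 9.50 and 9.48 on the Col water arrays. The order of the groups, from low to high, was sid2, mil4 sid2, mil4 water, mil4 BTH, Col BTH and Col water. The first 2 overlapped, as did the last 2, and the mil4 BTH arrays lay in a range of their own between mil4 water and Col. The rule chose mil4 water for low values against Col, which leans towards such a place, so nothing is read from it. The mean over all 22746 probe sets was 7.496 to 7.764 on every array. Col BTH replicate 2 stood below the other Col BTH arrays. The share of all probe sets with an intensity below 16 was 9.61% on sid2 replicate 1 and 14.2% to 17.9% on the other arrays.

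**Figure D1:**
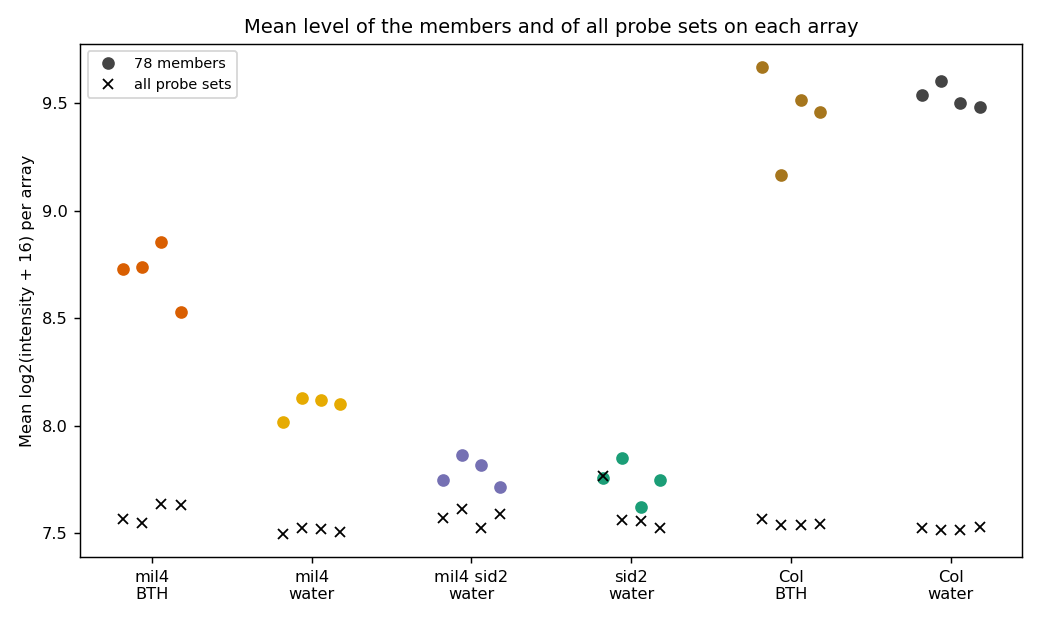
Mean log2(intensity + 16) of the 78 members (filled circles, in a colour for each group) and of all 22746 probe sets (crosses) on each of the 24 arrays, replicates 1 to 4 from left to right in each group. The members lie at 8.53 to 8.85 on the mil4 BTH arrays, at 7.62 to 8.13 on the water-sprayed mutants and at 9.17 to 9.67 in Col, while the crosses stay between 7.496 and 7.764.

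Several technical measures also differed between groups, and their part in the results was not tested. All mil4 sid2 and sid2 arrays were hybridized on a day of their own, day 4, whereas the mil4 and Col arrays were spread over days 1 to 3. A difference of sid2 or mil4 sid2 from Col or mil4 therefore cannot be told apart from the day. The median difference of mil4 water from Col water was -1.28, -1.35 and -1.43 on days 1, 2 and 3. The members were chosen on these same arrays, so these values describe the days and are no check on them. RNA quality was read first from GAPDH, as the signal of its 3′ probe set over that of its 5′ probe set. This ratio averaged 0.855 ± 0.134 in mil4 BTH, 1.03 ± 0.435 in mil4 water, 1.09 ± 0.017 in mil4 sid2, 1.16 ± 0.057 in sid2, 0.947 ± 0.136 in Col BTH and 0.854 ± 0.116 in Col water (SD, n = 4 each). On mil4 water replicate 4 it was 1.65. The same ratio was higher for actin, at 5.15 to 16.1 over the arrays, and for ubiquitin, at 1.66 to 3.16. For actin it averaged 12.1 in mil4 BTH, 11.9 in mil4 water and 9.11 in mil4 sid2. It averaged 9.73 in sid2, 10.33 in Col BTH and 10.02 in Col water (SD 1.18 to 4.09). For ubiquitin it averaged 1.79, 2.16, 2.56, 2.504, 2.21 and 2.46 in the same order of groups (SD 0.098 to 0.645).

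Markers of leaf and of other tissues were thinly represented by named probe sets. The leaf genes PRK and RCA, 2 of 12 on that list, summed to intensities of 27949 to 35654 on the mil4 BTH arrays and 34411 to 50719 on all others. The root genes EXPA7 and EXPA18, 2 of 8, summed to at most 158.2 on any array, and no floral or dividing-cell marker was measured. Several markers moved with the groups. TRY, a regulator of trichome patterning and the 1 of 6 trichome markers measured, had an intensity of 11.1 to 34.6 in mil4 BTH, 19.3 to 69.1 in mil4 water, 45.7 to 72.3 in mil4 sid2, 52 to 103.5 in sid2, 28.5 to 73.4 in Col BTH and 79 to 101.3 in Col water. Every mil4, mil4 sid2 and Col BTH array thus lay below every Col water array. The 3 of 8 guard cell markers measured summed to 335.6 to 484.1 in mil4 BTH, 279.4 to 483.1 in mil4 water, 389.2 to 453.1 in mil4 sid2, 370.3 to 521.6 in sid2, 227 to 365.8 in Col BTH and 396.6 to 479.5 in Col water. SWEET11, a sugar transporter of the vasculature and the 1 of 8 vascular markers measured, had an intensity of 3565 to 4590 in mil4 BTH, 3044 to 3702 in mil4 water, 2770 to 4120 in mil4 sid2, 2456 to 3146 in sid2, 2781 to 3374 in Col BTH and 1393 to 2164 in Col water. SAG101, a gene of senescence and immunity and the 1 of 7 senescence markers measured, had 301.4 to 409.3 in mil4 BTH, 123.8 to 198.1 in mil4 water, 148.9 to 158.5 in mil4 sid2, 104.8 to 220.5 in sid2, 212.8 to 438.5 in Col BTH and 77.3 to 171.4 in Col water. None of these markers is a member, and their part in the results was not tested.

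In the water-sprayed mutants the differences of the members from Col ran from the limit of the rule, -1, down to -3.56. The median difference from Col water was -1.36 in mil4, -1.59 in mil4 sid2 and -1.73 in sid2, where that of all probe sets was -0.001, 0.07 and 0.09 in the same order. The median of Col BTH minus Col water was -0.12. The lowest mutant mean was that of sid2 for 34 members, of mil4 sid2 for 31 and of mil4 for 13. For 8 members the lowest group mean was under 6, where the constant of 16 holds down a difference. The sum of the 2 single-mutant differences was larger than the difference in mil4 sid2 for 77 of 78 members. The rule itself favours that outcome, because it asks a fall of each single mutant and no more of the plants with both mutations. The exception was AT1G13650, with -3.29 in mil4 sid2 against a sum of -2.86.

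**Figure D2:**
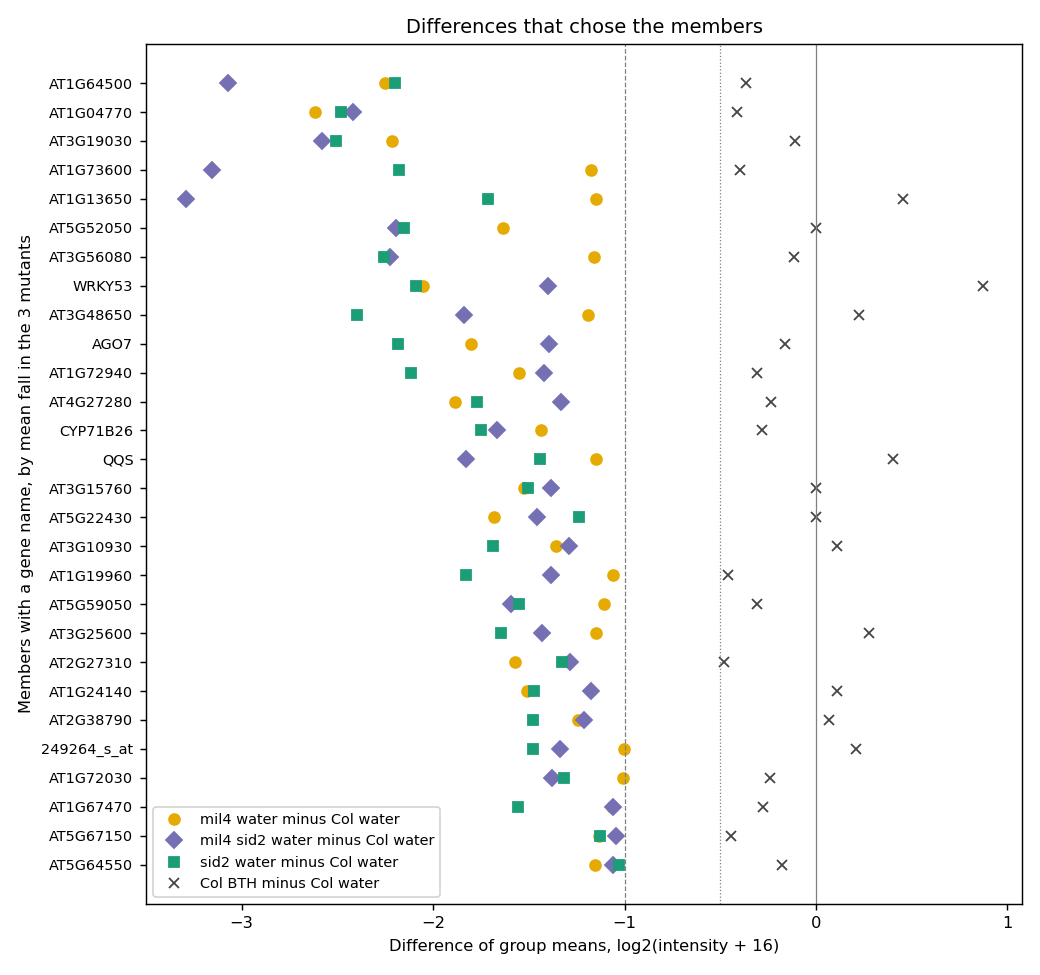
Differences of group means from Col water, log2(intensity + 16), for the 28 members with a gene name, ordered from the largest mean fall (top) to the smallest, with circles for mil4, diamonds for mil4 sid2, squares for sid2 and crosses for Col BTH. The dashed line at -1 and the dotted line at -0.5 are the limits of the rule. The diamonds of AT1G13650, AT1G73600 and AT1G64500 lie near -3, to the left of the other symbols of their rows.

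Part of the members rose with BTH in mil4, and another part stayed below the wild type. Of the 78, 30 rose in mil4 BTH relative to mil4 water and 1 fell, where 9.67% of all probe sets rose and 7.77% fell (limma, adjusted p under 0.05 over 22746 probe sets). The median difference was 0.55 over the members and 0.05 over all probe sets. Against Col BTH, which entered the rule only as a lower bound, 35 members were lower in mil4 BTH and 0 higher, where 1.82% of all probe sets were lower and 1.46% higher. The median was -0.77 over the members and 0.03 over all probe sets, and 55 members had an unadjusted p under 0.05 in either direction, as did 14.2% of all probe sets. The rule had chosen mil4 water for low values and Col BTH for values not far below Col water. Both comparisons therefore lean towards the direction seen, for single genes as well as for counts, and the shares of all probe sets are given for scale, with nothing read from them about the members. Both also share the mil4 BTH arrays. As a description, set side by side, they gave 27 members that rose over mil4 water and did not pass against Col BTH, 31 that were lower than Col BTH and did not pass against mil4 water, 3 that did both, 1 that was lower than both groups, and 16 that passed neither.

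In these groups, BTH arrays ran in fluidics modules 2 and 4 and water arrays in modules 1 and 3, so module and spray cannot be told apart within mil4. With module as a block, estimated through the sid2 and mil4 sid2 arrays, 19 members rose in mil4 BTH relative to mil4 water, as did 3.7% of all probe sets. Same-numbered arrays of these 2 groups shared hybridization day and run. With run as a block 29 members rose, and 2315 of 22746 probe sets. With replicate number as a block, in the 2 groups alone, 8 members rose, and 282 of 22746 probe sets. Without a block, the median difference of mil4 BTH from mil4 water was 0.35, 0.31 and 0.57 on days 1, 2 and 3. For mil4 BTH against Col BTH, which shared modules, the median by day was -0.72, -1.15 and -0.39, and 59, 78 and 60 of the 78 members were below 0. With run as a block, where only 1 run held both groups, 11 members were called lower, and 0.352% of all probe sets. Without Col BTH replicate 2, the array that stood low, 39 members were, and 2.05% of all probe sets.

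**Figure D3:**
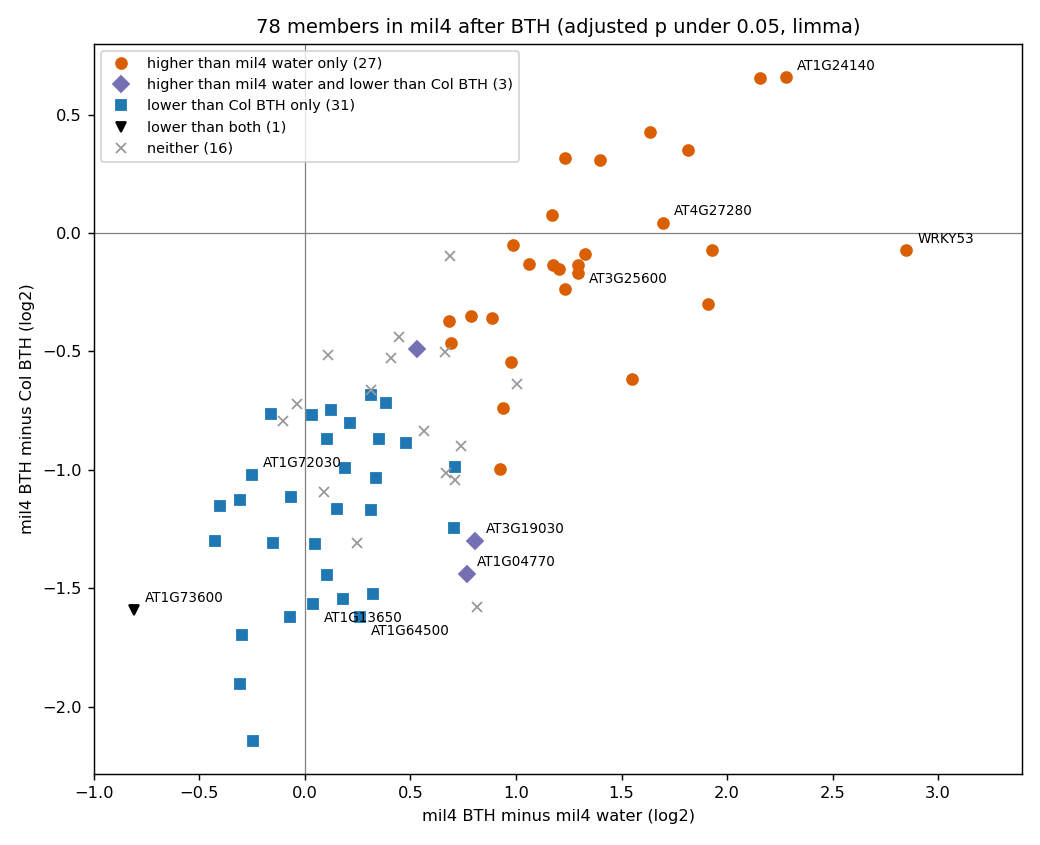
Each of the 78 members by its difference of mil4 BTH from mil4 water (horizontal axis, log2) and of mil4 BTH from Col BTH (vertical axis, log2), with symbols for the calls at an adjusted p of 0.05 (limma). The 27 circles, which rose over mil4 water only, lie to the right, with WRKY53 farthest, and the 31 squares, lower than Col BTH only, lie in the lower left, with AT1G73600 (triangle) alone at the far left. Both axes use the mil4 BTH arrays.

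Of the 30 members that rose, 13 have a single gene name. WRKY53 encodes a transcription factor that acts in leaf senescence and defence. Its level was 10.51, 10.03, 11.06 and 10.22 on the mil4 BTH arrays, against 7.36, 7.78, 7.57 and 7.72 on the mil4 water arrays. It was 8.30, 8.18, 8.47 and 8.08 in mil4 sid2 water and 7.67, 7.75, 7.26 and 7.60 in sid2 water, against 10.81, 9.75, 10.77 and 10.78 in Col BTH and 10.11, 9.66, 9.55 and 9.31 in Col water. All mil4 BTH arrays lay above every array of a water-sprayed mutant, and 3 of the 4 lay within the range of Col and replicate 3 above it. WRKY53 rose 7.21-fold in mil4 BTH (log2 difference 2.85, SE 0.23, adjusted p = 1.33e-07, limma, n = 4 arrays per group), the largest rise of the members. It differed from Col BTH by -0.07 (SE 0.23, adjusted p = 0.94). Beside those values, Col BTH lay 0.87 above Col water, which the rule left free. Of the salicylic acid response list it is the 1 gene of 22 that was measured.

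Calcium-binding proteins relay the calcium signals that follow the perception of pathogens and other stimuli. AT4G27280, which encodes an EF-hand calcium-binding protein, reached 11.13, 11.30, 11.77 and 11.07 in mil4 BTH, against 9.49, 9.87, 9.49 and 9.64 in mil4 water. The levels were 10.17, 9.996, 10.37 and 10.18 in mil4 sid2 water, 9.48, 9.54, 10.02 and 9.91 in sid2 water, 11.83, 10.39, 11.64 and 11.23 in Col BTH and 11.35, 11.27, 12.04 and 11.37 in Col water. Every mil4 BTH array lay above every array of a water-sprayed mutant. The rise over mil4 water was 3.24-fold (1.70, SE 0.24, adjusted p = 5.47e-05, limma). AT3G25600, a calmodulin-like gene, averaged 10.60 ± 0.38 in mil4 BTH and 9.31 ± 0.27 in mil4 water (SD, n = 4 each), a rise of 2.45-fold (1.29, SE 0.17, adjusted p = 1.9e-05, limma). Its Col BTH mean was 10.74 ± 0.24 and its Col water mean 10.46 ± 0.19. On the fixed list of 110 calcium signalling genes, which holds neither of these, 14 were measured. Of those, 5 rose and 0 fell in mil4 BTH relative to mil4 water, where 9.67% of all probe sets rose and 7.77% fell. The rises with the largest size there were CML41 (2.64, SE 0.30) and CML37 (2.19, SE 0.33). Unlike the members, CML41 averaged 7.72 in mil4 water, 7.75 in mil4 sid2 water, 7.42 in sid2 water and 7.67 in Col water.

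Other members that rose encode secreted or immune proteins. AT1G24140 encodes a matrix metalloproteinase, a protease of the space outside the cell. Its level was 9.22, 8.99, 10.16 and 8.80 in mil4 BTH, against 6.63, 7.64, 6.72 and 7.07 in mil4 water. It was 7.005, 7.66, 7.25 and 7.48 in mil4 sid2 water, 7.23, 7.01, 7.06 and 6.90 in sid2 water, 8.94, 7.79, 9.05 and 8.77 in Col BTH and 8.61, 8.22, 8.83 and 8.43 in Col water. The rise was 4.85-fold (2.28, SE 0.29, adjusted p = 1.23e-05, limma), and the difference from Col BTH, 0.66 (SE 0.29), did not pass (adjusted p = 0.281). AT3G10930 encodes the precursor of a small peptide of the family of IDA, a peptide signal of organ shedding. It stood at 7.44, 7.43, 7.27 and 7.11 in mil4 BTH, against 5.75, 5.44, 5.89 and 6.98 in mil4 water. It stood at 5.85, 6.08, 6.06 and 6.32 in mil4 sid2 water, 5.70, 6.07, 5.45 and 5.50 in sid2 water, 7.60, 7.78, 7.41 and 7.14 in Col BTH and 7.86, 7.87, 6.58 and 7.16 in Col water. Only mil4 water replicate 4 came near the mil4 BTH arrays, and the rise was 2.45-fold (1.30, SE 0.28, adjusted p = 0.00272, limma), which missed the threshold with module as a block (adjusted p = 0.0887).

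Proteins with the TIR domain of immune receptors were represented by 2 members. The probe set 249264_s_at, which the annotation pairs with the neighbouring receptor genes AT5G41750 and AT5G41740, averaged 9.85 ± 0.46 in mil4 BTH and 8.22 ± 0.54 in mil4 water (SD, n = 4 each) and rose 3.11-fold (1.63, SE 0.25, adjusted p = 9.58e-05, limma). It cannot tell its 2 genes apart, and it met the rule narrowly, with a difference of mil4 water from Col water of -1.0003. AT1G72940 averaged 8.95 ± 0.39 in mil4 BTH and 8.06 ± 0.15 in mil4 water (SD, n = 4 each). Its rise was 1.85-fold (0.89, SE 0.21, adjusted p = 0.00427, limma), and missed the threshold with module as a block (adjusted p = 0.151). AT3G48650 is a transcribed pseudogene by its RefSeq biotype. Its level was 9.25, 8.98, 9.70 and 8.71 in mil4 BTH, against 7.96, 8.05, 7.26 and 8.06 in mil4 water. It was 6.99, 7.58, 7.11 and 7.08 in mil4 sid2 water, 6.30, 6.56, 6.91 and 6.75 in sid2 water, 9.37, 9.42, 9.05 and 9.16 in Col BTH and 9.41, 9.13, 8.80 and 8.76 in Col water. The 4 mil4 BTH arrays overlapped with Col and not with any water-sprayed mutant, and the rise was 2.51-fold (1.33, SE 0.22, adjusted p = 0.000192, limma).

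The other named members that rose were AT2G38790 (log2 difference 1.18), AT2G27310 (1.17), an F-box gene, AT3G15760 (0.98) and CYP71B26 (0.69), a cytochrome P450 gene, besides AT3G19030 and AT1G04770, which are described with the members lower than Col BTH. CYP71B26 lost its call without mil4 water replicate 2 (adjusted p = 0.0638), mil4 BTH replicate 1 (0.0725) or mil4 BTH replicate 3 (0.0746). With module as a block CYP71B26 (adjusted p = 0.201), AT2G27310 (0.113) and AT2G38790 (0.103) missed the threshold. The cytochrome P450 list held 236 genes whose symbol is CYP with a number, so not all need be cytochromes P450. Of the 24 measured, 7 rose and 1 fell, CYP71B26 among the 7. Over all probe sets 9.67% rose and 7.77% fell. AGO7, which encodes an argonaute protein of small-RNA pathways in leaf development, stood at 6.86, 6.06, 6.77 and 6.22 in mil4 BTH, against 5.12, 4.44, 6.55 and 5.79 in mil4 water. It stood at 5.98, 5.95, 5.80 and 5.78 in mil4 sid2 water, 4.89, 5.36, 4.29 and 5.82 in sid2 water, 7.43, 6.42, 7.45 and 7.16 in Col BTH and 7.10, 7.76, 7.24 and 6.995 in Col water. Its difference of 1.004 (SE 0.36) did not pass (adjusted p = 0.0631), and its mutant arrays scattered close to background. AT1G67470, a protein kinase gene, differed by 0.69 (adjusted p = 0.0536).

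**Figure D4:**
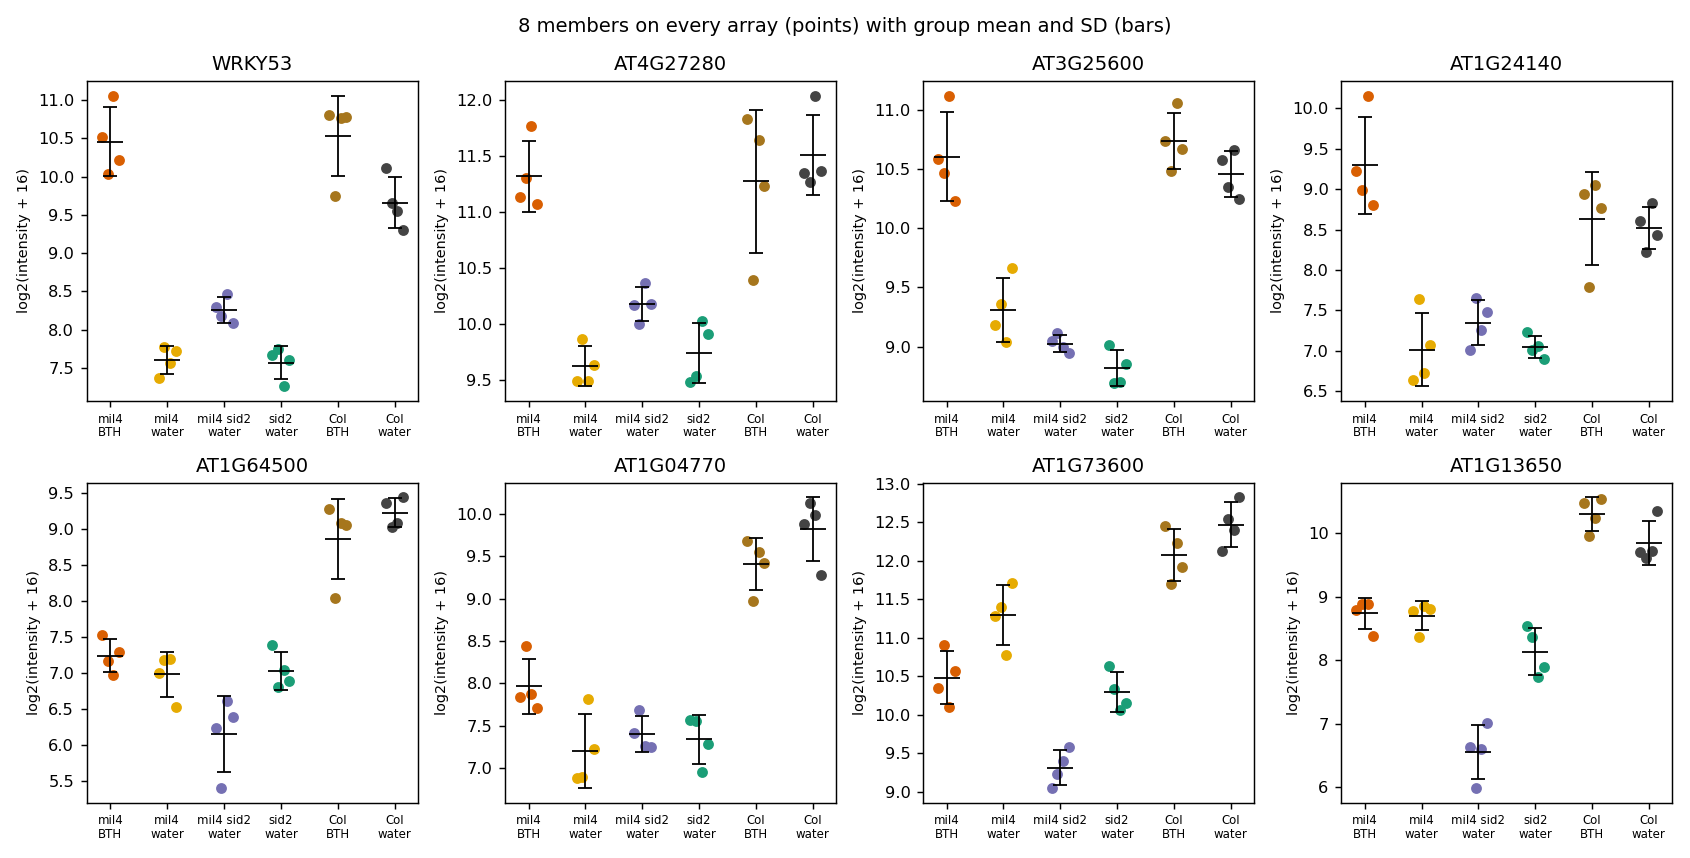
Levels of 8 members, log2(intensity + 16), on each array (points, replicates 1 to 4 from left to right) with the group mean and SD (black bars, n = 4). In the upper row (WRKY53, AT4G27280, AT3G25600, AT1G24140) the mil4 BTH arrays lie above the mil4 water arrays and reach the range of Col, and in the lower row (AT1G64500, AT1G04770, AT1G73600, AT1G13650) they lie below every Col BTH array. Each vertical axis has its own range and does not start at 0.

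Of the 35 members lower in mil4 BTH than in Col BTH, 9 have a gene name. AT1G64500 encodes a glutaredoxin-like protein known for chloroplast movement. It stood at 7.53, 7.16, 6.98 and 7.28 in mil4 BTH, against 9.27, 8.04, 9.08 and 9.05 in Col BTH. The levels were 7.005, 7.18, 7.20 and 6.53 in mil4 water, 6.23, 5.40, 6.61 and 6.39 in mil4 sid2 water and 7.39, 6.80, 7.03 and 6.88 in sid2 water, against 9.35, 9.03, 9.08 and 9.44 in Col water. It was 3.08-fold lower in mil4 BTH than in Col BTH (-1.62, SE 0.26, adjusted p = 0.00106, limma), with no overlap of arrays. Relative to mil4 water it differed by 0.26 (SE 0.26, adjusted p = 0.569).

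AT1G04770 encodes a protein with tetratricopeptide repeats that plants induce when sulfur is short. Its level was 7.83, 8.45, 7.88 and 7.71 in mil4 BTH, against 9.69, 8.97, 9.55 and 9.42 in Col BTH. It was 6.88, 6.89, 7.81 and 7.23 in mil4 water, 7.41, 7.69, 7.25 and 7.25 in mil4 sid2 water and 7.57, 7.55, 6.95 and 7.29 in sid2 water, against 9.88, 10.14, 9.99 and 9.28 in Col water. The 3 water-sprayed mutants overlapped, and each of their arrays lay below every Col array. AT1G04770 was 2.71-fold lower in mil4 BTH than in Col BTH (-1.44, SE 0.23, adjusted p = 0.0011, limma) and 1.7-fold higher than in mil4 water (0.77, SE 0.23, adjusted p = 0.0236). The rise lost its call without mil4 water replicate 1 (adjusted p = 0.0824) or 2 (0.0763), without mil4 BTH replicate 2 (0.086), or with module as a block (0.298).

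AT3G19030, with no role given here, stood at 9.95, 9.88, 10.20 and 9.58 in mil4 BTH, against 11.54, 10.75, 11.03 and 11.48 in Col BTH. It stood at 8.97, 9.33, 9.06 and 9.03 in mil4 water, 8.94, 8.56, 9.002 and 8.43 in mil4 sid2 water and 8.57, 9.04, 8.68 and 8.94 in sid2 water, against 11.50, 11.24, 11.49 and 11.00 in Col water. The mil4 BTH arrays lay between mil4 water and Col without touching either. The gene was 2.46-fold lower in mil4 BTH than in Col BTH (-1.30, SE 0.19, adjusted p = 0.000434, limma) and 1.75-fold higher than in mil4 water (0.81, SE 0.19, adjusted p = 0.00406). With run as a block the difference from Col BTH missed the threshold for AT3G19030 (adjusted p = 0.0823) and AT1G04770 (0.238).

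AT1G73600 encodes a phosphoethanolamine N-methyltransferase, an enzyme of the path to phosphatidylcholine, a main membrane lipid. Its level was 10.35, 10.91, 10.10 and 10.57 in mil4 BTH, against 12.45, 11.70, 12.23 and 11.91 in Col BTH. It was 11.28, 11.40, 10.78 and 11.71 in mil4 water, 9.05, 9.23, 9.39 and 9.58 in mil4 sid2 water and 10.63, 10.34, 10.06 and 10.15 in sid2 water, against 12.12, 12.54, 12.39 and 12.82 in Col water. It was the 1 member that fell with BTH in mil4, 1.75-fold relative to mil4 water (-0.81, SE 0.22, adjusted p = 0.0113, limma), although mil4 water was already chosen for being low. That call was lost without mil4 BTH replicate 3 (adjusted p = 0.0553). It was 3.01-fold lower than in Col BTH (-1.59, SE 0.22, adjusted p = 0.000261), with no overlap of arrays.

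AT1G13650, with no role given here, stood at 8.79, 8.89, 8.88 and 8.38 in mil4 BTH, against 10.47, 9.95, 10.24 and 10.54 in Col BTH. It stood at 8.77, 8.36, 8.85 and 8.81 in mil4 water, 6.63, 5.98, 6.59 and 7.01 in mil4 sid2 water and 8.53, 8.36, 7.74 and 7.90 in sid2 water, against 9.70, 9.60, 9.72 and 10.35 in Col water. The mil4 arrays with BTH and with water covered nearly the same range, with a difference of 0.04 (SE 0.22, adjusted p = 0.943). The gene was 2.96-fold lower in mil4 BTH than in Col BTH (-1.57, SE 0.22, adjusted p = 0.000398, limma). AT1G72030, a gene of the acetyltransferase family GNAT, averaged 9.05 ± 0.08 in mil4 BTH and 10.08 ± 0.15 in Col BTH (SD, n = 4 each), a difference of -1.02 (SE 0.13, adjusted p = 0.000192, limma) that missed the threshold with run as a block (adjusted p = 0.0586).

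AT3G56080, a gene of the S-adenosylmethionine-dependent methyltransferases, stood at 7.32, 7.18, 6.88 and 7.23 in mil4 BTH, against 8.57, 8.29, 8.25 and 7.95 in Col BTH. It stood at 7.15, 7.30, 7.16 and 7.26 in mil4 water, 6.08, 6.505, 6.33 and 5.71 in mil4 sid2 water and 4.86, 6.92, 6.41 and 6.30 in sid2 water, against 8.27, 8.50, 8.45 and 8.30 in Col water. It was 2.17-fold lower in mil4 BTH than in Col BTH (-1.11, SE 0.28, adjusted p = 0.0289, limma), with no overlap of arrays. AT3G56080 lost its call on leaving out any of 7 arrays (adjusted p of 0.051 to 0.105), the exception being Col BTH replicate 4. AT1G19960 (-0.76, adjusted p = 0.0439) lost its call on leaving out any of 7 arrays as well (0.0612 to 0.147), the exception being Col BTH replicate 2. AT5G59050 (-0.77, adjusted p = 0.0131) lost it without Col BTH replicate 3 (0.0573) or 4 (0.0548) or mil4 BTH replicate 3 (0.0645). With run as a block none of these 3 genes passed (adjusted p of 0.124 to 0.347), nor did AT1G19960 with day as a block (0.0617).

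Among the 7 named members that passed neither comparison, AT5G52050 had the largest fall in the mutants. It encodes a transporter of the MATE family that exports abscisic acid from cells. It stood at 6.67, 6.78, 7.10 and 7.17 in mil4 BTH and 6.23, 5.69, 6.41 and 6.43 in mil4 water. It stood at 5.96, 6.22, 5.95 and 4.40 in mil4 sid2 water, 6.68, 6.27, 5.09 and 4.66 in sid2 water, 8.05, 7.497, 8.17 and 7.59 in Col BTH and 7.86, 7.99, 8.30 and 7.16 in Col water. The mil4 BTH arrays lay above mil4 water and below Col BTH with no overlap, but the differences of 0.74 (adjusted p = 0.239) and -0.90 (0.296) did not pass. QQS, which affects how carbon is divided between starch and protein, averaged 7.30 ± 0.89 in mil4 BTH and 8.61 ± 0.39 in Col BTH (SD, n = 4 each), a difference of -1.31 that did not pass (adjusted p = 0.106). The others were AGO7, AT1G67470, AT5G22430, a gene of the Ole e 1 pollen-protein family, AT5G67150, an acyltransferase gene, and AT5G64550.

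**Figure D5:**
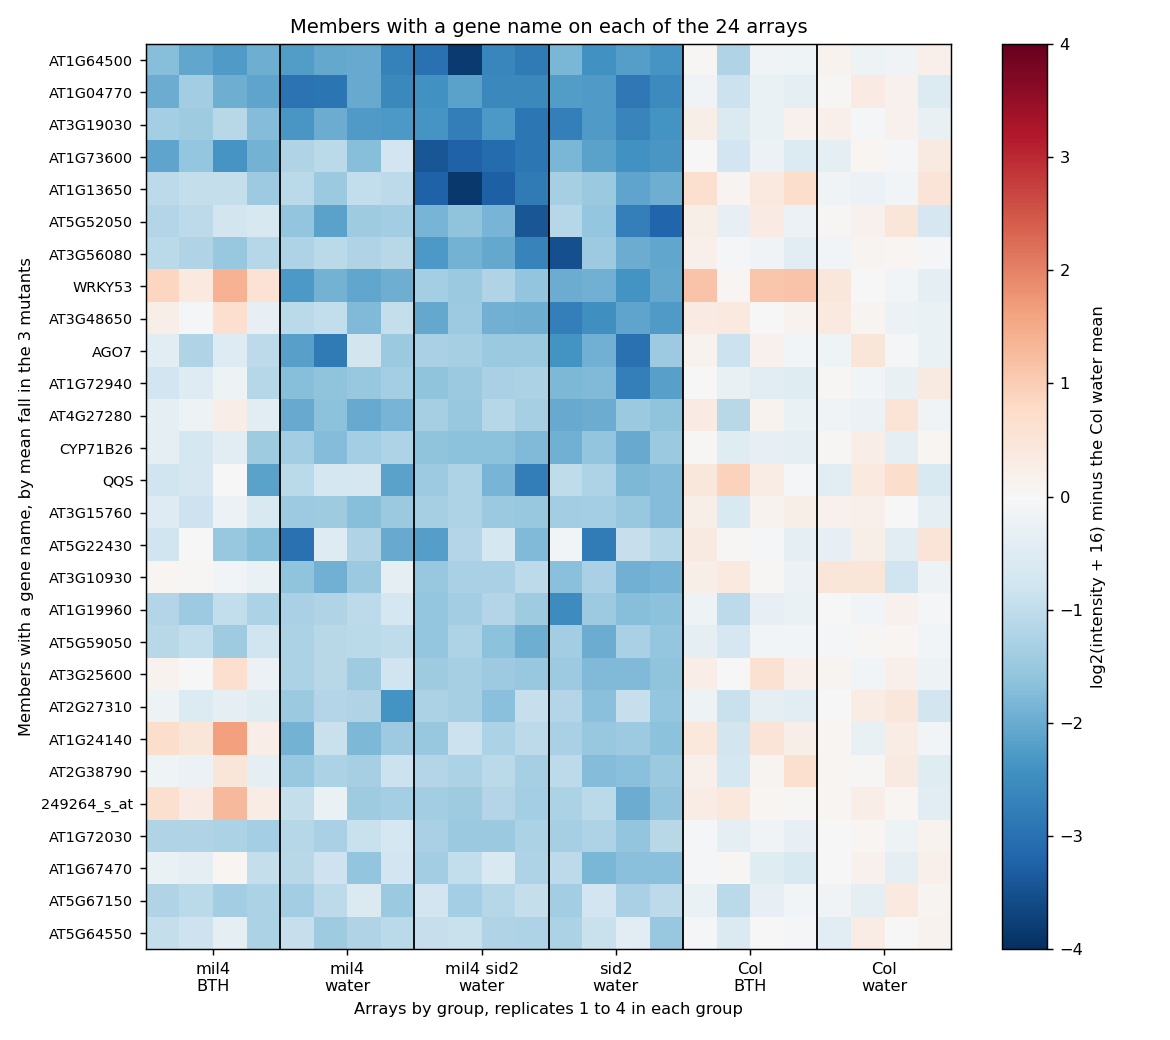
Heat map of the 28 members with a gene name (rows, from the largest mean fall to the smallest) on the 24 arrays (columns, replicates 1 to 4 in each group). Colour gives log2(intensity + 16) minus the Col water mean of the row, blue for lower and red for higher, on a scale of -4 to 4. The water-sprayed mutants are blue in nearly all cells, and the mil4 BTH columns are pale or red for WRKY53, AT3G48650, AT3G25600, AT1G24140 and 249264_s_at and stay blue for AT1G64500, AT1G04770, AT1G73600 and AT1G13650.

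Differences between the mutants were called for a minority of the members. Each of these groups had entered the rule against Col water. The counts, and the p-values of single members here and below, therefore describe the members. Nothing is read from the counts against the shares of all probe sets. In mil4 sid2 relative to mil4, both with water, 15 members were lower and 0 higher, where 2.82% of all probe sets were lower and 2.75% higher (limma, adjusted p under 0.05). At an unadjusted p under 0.05, 31 members differed in either direction, as did 19.1% of all probe sets. These arrays lay on different days, so genotype and day cannot be told apart. In mil4 sid2 relative to sid2, which were hybridized on the same day, 1 member was higher and 2 lower, where 0.198% and 0.273% of all probe sets were. The median difference of the members was -0.21 in the first comparison and 0.05 in the second. In mil4 relative to sid2 water, 8 members were higher and 0 lower, where 1% and 0.567% of all probe sets were, with a median of 0.32, and 28 members had an unadjusted p under 0.05 in either direction, as did 15.4% of all probe sets. Here again the day differed.

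AT1G13650 was the clearest member in which the plants with both mutations lay below each single mutant. The rule used the means of all 3 groups, so the p-values given here come from values that helped to choose the members. It was 4.41-fold lower in mil4 sid2 than in mil4 water (-2.14, SE 0.22, adjusted p = 7.15e-06, limma) and 2.98-fold lower than in sid2 water (-1.58, SE 0.22, adjusted p = 0.00256), with no overlap in either case. AT1G73600 was 3.94-fold lower in mil4 sid2 than in mil4 water (-1.98, SE 0.22, adjusted p = 9.51e-06, limma). Relative to sid2 water it was 1.97-fold lower (-0.98, SE 0.22, adjusted p = 0.0434), and it was 2-fold higher in mil4 than in sid2 water (0.999, SE 0.22, adjusted p = 0.021). The comparison with sid2 lost its call without any 1 of the 8 arrays (adjusted p of 0.0557 to 0.153) and with run (0.0652) or module (0.212) as a block, and the comparison of mil4 with sid2 without mil4 water replicate 1 (0.0509), 2 (0.0684) or 4 (0.0768) or sid2 replicate 3 (0.0676) or 4 (0.0577). AT3G56080 was 2.09-fold lower in mil4 sid2 than in mil4 water (-1.06, SE 0.28, adjusted p = 0.0279), and missed the threshold on leaving out replicate 1 (0.0547), 2 (0.0711) or 4 (0.0629) of mil4 water, replicate 1 (0.0678) or 4 (0.0987) of mil4 sid2, or with module as a block (0.222). AT3G48650 was 2.3-fold higher in mil4 than in sid2 water (1.204, SE 0.22, adjusted p = 0.00621). Fitted to the 2 groups alone, none of these 4 comparisons with sid2 passed (adjusted p of 0.0999 to 0.145).

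Among the members without a gene name, 4 were singled out after their values were seen. The probe set 256793_at had the largest rise of these in mil4 BTH relative to mil4 water, 4.46-fold (2.16, SE 0.24), with means of 9.58 and 7.43. The probe set 258497_at had the largest difference of any member from Col BTH and was 4.42-fold lower in mil4 BTH (-2.14, SE 0.23), with means of 7.37 and 9.52. The probe set 266097_at was 3.45-fold lower in mil4 sid2 than in mil4 water (-1.79, SE 0.21) and 2.78-fold higher in mil4 than in sid2 water (1.48, SE 0.21). The probe set 255503_at was the 1 member higher in mil4 sid2 than in sid2 water (0.63, SE 0.13, adjusted p = 0.0369, limma). It was also higher in mil4 BTH than in mil4 water (0.53, SE 0.13).

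The fixed gene lists held few named probe sets, and counts on them are small. For scale, 9.67% of all probe sets rose and 7.77% fell in mil4 BTH relative to mil4 water. Of 67 WRKY genes 6 were measured, of which 2 rose and 1 fell in mil4 BTH relative to mil4 water. Besides WRKY53 the second rise was WRKY47 (0.95, SE 0.18, adjusted p = 0.000685, limma), which was not low in the mutants, with means of 7.74 in mil4 water, 7.59 in mil4 sid2, 7.36 in sid2 and 7.20 in Col water. Of 32 genes of pattern-triggered immunity, the response to molecules of microbes, 6 were measured, of which 2 rose and 1 fell. PUB24, a ubiquitin ligase gene, rose by 0.98 (SE 0.18) and BIK1, a receptor-like kinase gene, by 0.87 (SE 0.14). None of the 107 receptor kinases listed was measured. On the TIR and NB-LRR list of 16 genes, matched by symbol, the 1 measured was rps2 of the plastid genome. It is not an immune receptor gene, so no receptor of that list was measured. The named members lay on chromosome 1 (10 genes, 0.29% of the named probe sets there), 2 (2, 0.09%), 3 (8, 0.29%), 4 (2, 0.10%) and 5 (5, 0.17%). Their genes had a median length of 1576 bp, against 2117 bp over 13436 named probe sets.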

How the data were processed

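The authors deposited linear intensities per probe set in 1 table of 24 arrays and 22810 probe sets. Each array has a 2% trimmed mean of 500.0, so it had been scaled to that value, and array medians lay between 151.8 and 185.0. The software, background correction and probe summary were not given in the sources used here. Hybridization day, run and fluidics module were read per the file headers of the scan records. The number of arrays, 4 per group, limits the precision.

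The 64 control probe sets were left out and log2(intensity + 16) was used, which understates changes of dim probe sets. The tests used limma 3.58.1 under R 4.3.3 (1 mean per group over all 24 arrays, eBayes, 2-sided), with Benjamini-Hochberg adjustment over 22746 probe sets and a threshold of 0.05, after a check on simulated data. Names came from the platform annotation (1 gene for 13513 probe sets, several for 503, none here for 8730), of which 13436 matched RefSeq, assembly TAIR10.1. Plots were made with Python 3.11.15 and matplotlib 3.10.9.

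The members and the gene lists were chosen with earlier results of these data known. Genes given on every array were the 10 named members with the largest mean fall, WRKY and salicylic acid genes, and the 5 largest rises and falls past the threshold in the 2 comparisons of mil4 BTH. The 3 named probe sets nearest the line were given on either side of it, and up to 2 genes of a list. The alternatives were other pseudocounts, quantile normalization, a filter on dim probe sets, replicate, day, run and module as blocks, array weights, the 2 groups alone, leaving out each array, and other limits of the rule. Day and run as random blocks were added after the data were seen. In the main fits same-numbered arrays were not treated as pairs, since in no comparison tested did every pair of deviations correlate above 0.1. Those of mil4 BTH and mil4 water did share hybridization day and run, as did those of mil4 sid2 and sid2. The interaction of genotype and BTH was not tested, as the rule bounds 3 of its 4 groups.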

Additional observations from a re-analysis of the deposited data

Results flagged for a closer look

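Groups of 4 arrays were searched for 1 array far from the other 3, for each of the 27 members with a single gene name, for the mean of the members and for the GAPDH ratio. Of these 174 groups, 9 held such an array, all for named members, and chance flags about 1 in 20 groups. In each case the gap to the nearest other array, as a share of the group's range, passed the critical value of Dixon's test. Col BTH replicate 2 accounted for 4 of them. WRKY53 was at 9.75 there, against 10.77 to 10.81 on the other Col BTH arrays. AT3G15760 was at 8.91, against 9.67 to 9.75. AT1G19960 was at 10.90, against 11.62 to 11.75. AT5G64550 was at 7.64, against 8.16 to 8.22.

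In mil4 water, AT1G13650 was at 8.36 on replicate 2, against 8.77 to 8.85 on the other arrays, and AT3G48650 at 7.26 on replicate 3, against 7.96 to 8.06. In mil4 sid2 water, AT5G52050 was at 4.40 on replicate 4, against 5.95 to 6.22. In Col water, AT1G13650 was at 10.35 on replicate 4, against 9.60 to 9.72, and AT4G27280 at 12.04 on replicate 3, against 11.27 to 11.37. The calls of WRKY53, AT4G27280, AT3G48650 and AT1G13650 given above were kept on leaving out any array of the groups compared.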

How the results depend on the processing

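Precision was limited by 4 arrays per group and by dim probe sets. None of the calls of named members was reversed under the alternatives: of 539 tests of a call, 440 kept it and 99 lost it. With replicate number as a block, in the 2 groups alone, the counts of probe sets called were 353 for mil4 BTH against mil4 water (members higher 8), 0 for mil4 BTH against Col BTH (members lower 0), 23 for mil4 sid2 against mil4 (members lower 1), 0 for mil4 sid2 against sid2 (members called 0) and 1 for mil4 against sid2 (members higher 0). Same-numbered arrays shared hybridization day and run for mil4 BTH and mil4 water and for mil4 sid2 and sid2. In the other comparisons tested they did not do so throughout. Deviations of same-numbered arrays correlated at -0.07 to 0.03 for mil4 BTH and mil4 water and at 0.001 to 0.135 for mil4 BTH and Col BTH. They correlated higher in some pairs of groups that were not tested. The range was 0.147 to 0.282 for Col water and Col BTH and 0.129 to 0.177 for Col water and mil4 BTH. In the same order of comparisons, the 2 groups alone gave 2155, 201, 609, 0 (members called 0) and 16 (members higher 1), and module as a block gave 1379 (members higher 19), 590 for mil4 sid2 against mil4, 21 for mil4 sid2 against sid2 (members called 1) and 94 for mil4 against sid2 (members higher 4). Fitted to the 2 groups alone, AT1G04770 (adjusted p = 0.0917), AT1G73600 (0.0677) and CYP71B26 (0.107) lost their calls against mil4 water and AT1G19960 (0.137) and AT5G59050 (0.096) against Col BTH, and AT3G56080 lost its calls with a pseudocount of 1 (0.119 against Col BTH, 0.0675 for mil4 sid2 against mil4). For mil4 BTH against Col BTH array weights gave 1196 and run as a block 151 (members lower 11). With probe sets of a mean of at least 7, 23 members were lower in mil4 sid2 than in mil4, 240 probe sets were called for mil4 sid2 against sid2, and 600 for mil4 against sid2 (members higher 15). Quantile normalization split the calls for mil4 BTH against mil4 water into 1752 higher and 2135 lower. Where each of the 2 groups lay on its own day, a fixed block of day or run could not be estimated, and the added random blocks left the counts of members at 15 for mil4 sid2 against mil4 and at 7 and 8 for mil4 against sid2. Leaving out 1 array gave 2637 to 3823 probe sets called for mil4 BTH against mil4 water (3968 with all arrays, lowest without mil4 BTH replicate 3), with 28 to 32 members higher. It gave 431 to 878 for mil4 BTH against Col BTH (748 with all), with 27 to 39 members lower, and fell to 431 to 492 without replicate 1 or 3 of mil4 BTH or 1, 3 or 4 of Col BTH. It gave 807 to 1328 for mil4 sid2 against mil4 (1266 with all, 807 to 829 without mil4 water replicate 2 or mil4 sid2 replicate 2 or 4), with 13 to 16 members lower. It gave 24 to 105 for mil4 sid2 against sid2 (107 with all), with 1 or 2 members called and 1 for every array but sid2 replicate 3. It gave 141 to 407 for mil4 against sid2 (357 with all), with 3 to 9 members higher, fewest without mil4 water replicate 2, and 4 or 5 without mil4 water replicate 4 or sid2 replicate 3 or 4. On leaving out 1 array, 68 to 91 probe sets met the rule, with 64 to 78 of the 78 members among them. Fewest were kept without Col water replicate 4, where 79 met it. The rule gave 141 members with differences of at least 0.8, 42 with at least 1.2 and 27 with Col BTH above Col water. It gave 82 members with a pseudocount of 1, of which 74 were among the 78, 56 with 64 (50 among them), and 74 after quantile normalization (71 among them).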
